A study of Gallus gallus with 2 samples.

Results

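The genes that encode enzymes against reactive oxygen species and enzymes of glutathione metabolism were examined in basilar papillae (BPs), the auditory epithelium of the chick. Members were all rows of the deposited tables whose gene symbol begins with GPX, PRDX, TXN, GLRX, MGST or GST followed by A, K, M, O, T or Z, together with 16 named genes from SOD1 to KEAP1. This rule gave 61 of 23842 genes, each under a symbol of its own, and all 16 named genes were found. The rule itself uses gene names and no measured value, and it was chosen with earlier results of these data known.

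RNA of BP explants was compared between post-SM6 and SM0. For post-SM6, explants spent 48 h in streptomycin (SM), an aminoglycoside toxic to the hair cells (HCs) of the chick, and then 6 h without it. The SM0 explants were taken before exposure. In both groups the tissue came from male Momiji chicks at posthatch day 1, was cleaned of surrounding tissue with thermolysin, and was pooled from 50 BPs into 1 library. Each time point thus had 1 library and no replicate check, no explants cultured for the same time without SM were analysed here, and SM, time in culture and differences between pools cannot be told apart as sources of a change. Levels are given in TPM, which state how large a part of all transcripts a gene supplies once transcript length is corrected for, so that levels can be compared between genes. The sequencing depth cannot be read from TPM. Changes are on the log2 scale, post-SM6 over SM0 after 0.1 TPM was added to each level, and a gene was called higher or lower when it differed by at least 1.3-fold.

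Cells hold superoxide and peroxides in check through linked steps. Superoxide dismutases turn superoxide into hydrogen peroxide. Catalase, glutathione peroxidases and peroxiredoxins then reduce the peroxide, the glutathione peroxidases with electrons from glutathione and most peroxiredoxins with electrons from thioredoxin. Glutathione reductase and thioredoxin reductases restore these carriers with NADPH, and glutathione S-transferases couple glutathione to reactive compounds. The transcription factor NRF2, encoded by NFE2L2 and held back by KEAP1, is known in mammals to drive many of these genes. Aminoglycosides are known to raise reactive oxygen species in HCs.

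The labels describe SM0 as HCs with supporting cells (SCs) and post-SM6 as SCs. Of 31 rows for a list of HC markers, 28 were lower and 2 higher at post-SM6, and their summed level was 1102 TPM at post-SM6, against 4907 TPM at SM0. Of all genes with at least 1 TPM in either library, 23.3% were lower and 23.9% higher. SC markers were higher for 8 and lower for 3 of 13 rows, and summed to 5480.1 TPM at post-SM6 and 5385 TPM at SM0. All 12 fibroblast markers were higher at post-SM6, with a summed level of 441 TPM, against 80.5 TPM at SM0. Of 16 leukocyte markers 13 were higher and 1 was lower, with 272 TPM at post-SM6, against 98.6 TPM at SM0. Cartilage markers summed to 556 TPM at post-SM6 and 366 TPM at SM0. Of 10 with at least 1 TPM in either library, 7 were higher and 1 was lower. Neuron and glia markers summed to 488 TPM at post-SM6 and 704 TPM at SM0, and of 11 at that minimum 1 was higher and 7 were lower. Tegmentum vasculosum markers summed to 27.2 TPM at post-SM6 and 10.6 TPM at SM0, but went both ways. Of 3 at that minimum, OTX2 and KCNQ1 were higher and BSND was lower. Red blood cell markers were low, with 10.5 TPM at post-SM6 and 25.7 TPM at SM0 over 9 rows, and HBE, HBZ, RHAG and HEMGN were listed at 0 in both. The part of these other cell types in the changes described here was not tested, and in pooled tissue fewer cells of a type and less RNA per cell cannot be told apart.

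All 61 members had at least 1 TPM in either library, from 3.77 to 2577 TPM at post-SM6 and from 1.23 to 2131 TPM at SM0. The median member had 62.5 TPM at post-SM6, against 47.0 TPM at SM0. Over all 13321 genes with at least 1 TPM in either library, the medians were 15.6 TPM at post-SM6 and 15.9 TPM at SM0. The members summed to 1.03% of all TPM at post-SM6 and to 0.908% at SM0.

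At post-SM6, 25 of the 61 members (41.0%) were higher than at SM0, against 23.9% of all genes tested. Lower levels were found for 6 members (9.84%), against 23.3% of all genes. The other 30 members changed by less than 1.3-fold. The median log2 change was 0.19 over the members and -0.02 over all genes tested. At a fold of 2, 8 members (13.1%) were higher and 1 (1.64%) was lower, against 9.56% and 7.83% of all genes. Members were better expressed than the typical gene, and among genes with at least 5 TPM in either library 24 of 60 members (40%) were higher, with 20.6% of all such genes, and 6 members (10%) were lower, with 20.7% of all such genes. Among the 10 members of highest mean TPM (TXN, PRDX1, GPX1, GPX3, SOD1, GPX2, GPX4, TXNDC17, PRDX4 and GSTT1L) 2 were higher and 3 lower, while 23 of the other 51 were higher and 3 lower. Over the 18 members of mean TPM of at least 100, 6 were higher and 3 lower, with a median log2 change of 0.18. The shares of all genes at these levels were not computed, so these counts by level have no background beside them. The 10 members of highest mean TPM held 70.0% of the members' TPM at post-SM6 and 74.3% at SM0.

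**Figure D1:**
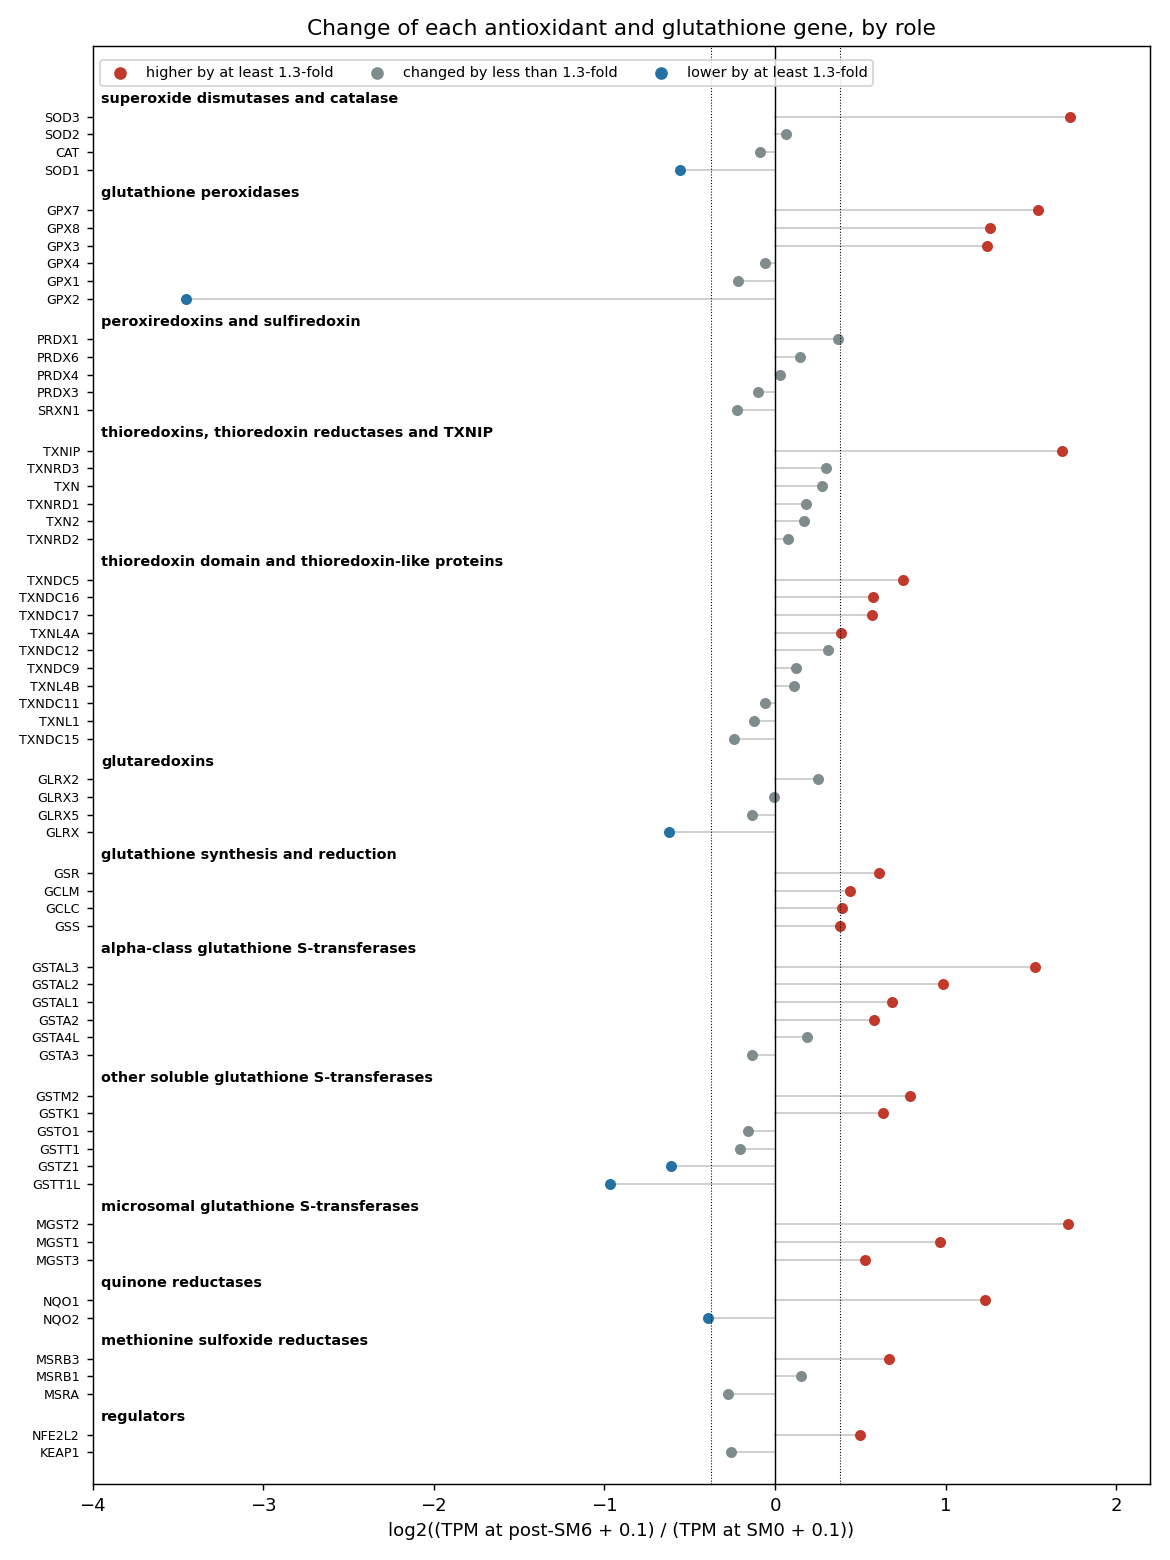
Log2 change of each member between post-SM6 and SM0 (horizontal axis), with 1 row per gene, grouped by role. Red points are higher and blue points lower at post-SM6 by at least 1.3-fold (dotted lines), and grey points changed by less. GPX2 at -3.45 lies far from every other member, and the next lowest is GSTT1L at -0.97.

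**Figure D2:**
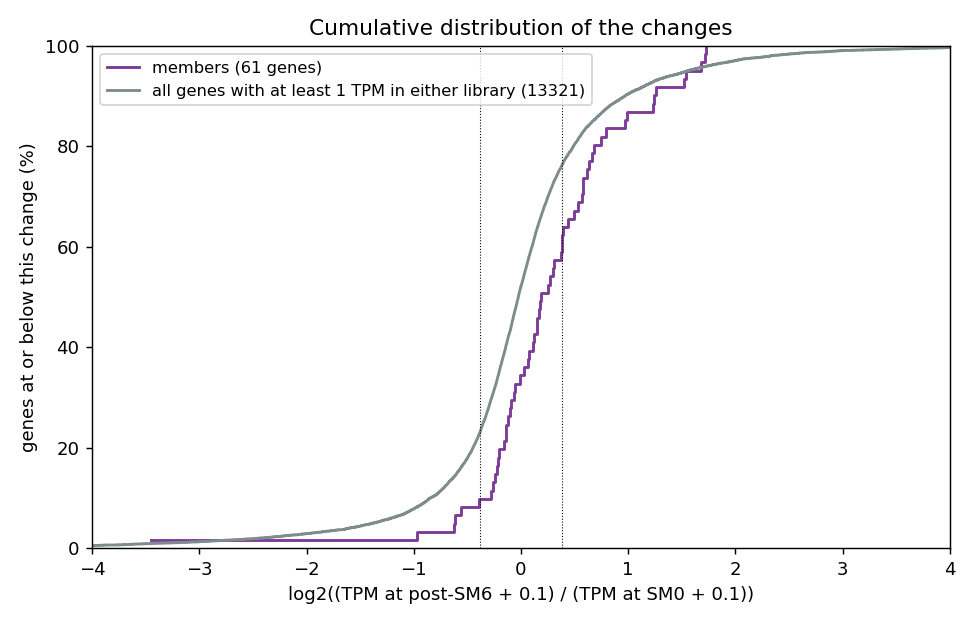
Cumulative share of genes (vertical axis, %) by log2 change between post-SM6 and SM0 (horizontal axis), for the 61 members and for all 13321 genes with at least 1 TPM in either library. The dotted lines mark 1.3-fold. The members' curve lies below that of all genes at both dotted lines, and the medians are 0.19 for the members and -0.02 for all genes.

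The log2 changes of the 6 glutathione peroxidases ran from -3.45 to 1.54, the widest range among the role groups. GPX2 (gene ID 100857454), known in mammals as the cytosolic glutathione peroxidase of epithelia, had 62.5 TPM at post-SM6, against 685 TPM at SM0. It was 11.0 times higher at SM0, with a log2 change of -3.45, and 123 of the 13321 genes had a lower value. GPX3 (gene ID 427638), the secreted glutathione peroxidase, had 1109.8 TPM at post-SM6 and 469 TPM at SM0, a log2 change of 1.24. GPX2 thus had the lowest change of all 61 members, and that of GPX3 was among the 8 highest.

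GPX8 and GPX7 encode glutathione peroxidases of the endoplasmic reticulum that work with protein disulfide isomerases. GPX8 had 46.2 TPM at post-SM6, against 19.3 TPM at SM0, and GPX7 had 3.77 TPM at post-SM6, against 1.23 TPM at SM0. Their log2 changes were 1.26 and 1.54, but GPX7 was the member with the lowest level in both libraries. GPX1, the abundant cytosolic and mitochondrial enzyme, had 802 TPM at post-SM6 and 932 TPM at SM0. GPX4, which reduces lipid hydroperoxides in membranes, had 321 TPM at post-SM6 and 335 TPM at SM0. Neither differed by 1.3-fold.

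The summed level of the 6 glutathione peroxidases was nearly the same in the libraries, with 2345 TPM at post-SM6 and 2442 TPM at SM0, a log2 ratio of -0.06. Its makeup was not. GPX2 gave 2.67% of the sum at post-SM6 and 28.1% at SM0, while GPX3 gave 47.3% at post-SM6 and 19.2% at SM0. GPX2 and GPX3 together had 1172 TPM at post-SM6 and 1155 TPM at SM0. This pair was not among the planned sums by role, and a link between their changes was not tested. The share of GPX4 was 13.7% in both, and that of GPX1 was 34.2% at post-SM6 and 38.2% at SM0. The most abundant glutathione peroxidase transcript was GPX3 at post-SM6 and GPX1 at SM0.

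**Figure D3:**
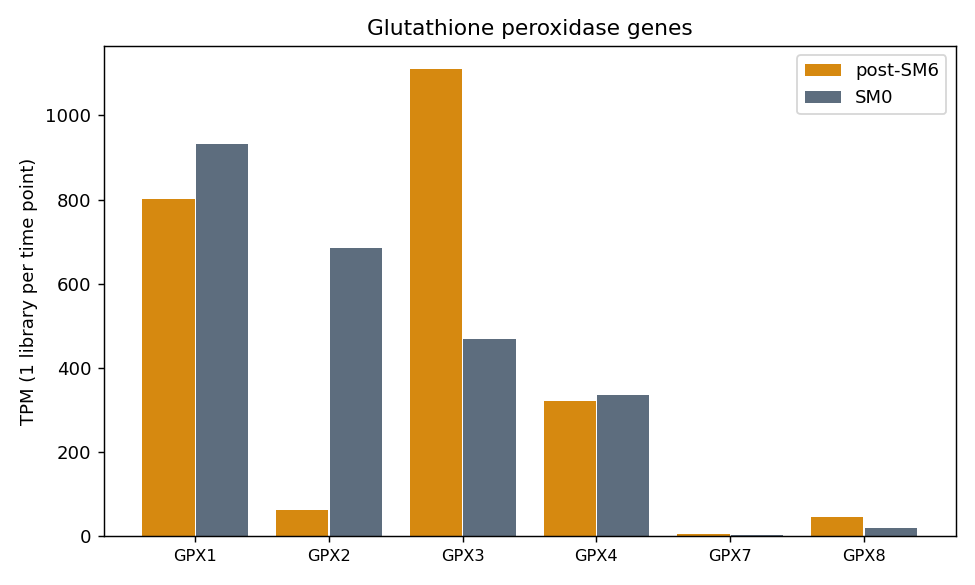
TPM (vertical axis, from 0) of the 6 glutathione peroxidase genes at post-SM6 (orange) and SM0 (grey), with 1 library per bar and no error. GPX2 had 62.5 TPM at post-SM6 and 685 TPM at SM0, GPX3 had 1109.8 TPM at post-SM6 and 469 TPM at SM0, and GPX1 and GPX4 differed little.

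Of 4 genes for superoxide dismutases and catalase, 1 was higher and 1 lower (25% each). These shares are near the 23.9% and 23.3% of all genes tested. SOD3 (gene ID 422810) encodes the extracellular superoxide dismutase and had 58.0 TPM at post-SM6, against 17.4 TPM at SM0. Its log2 change of 1.73 was the highest of all members, and 539 of the 13321 genes had a higher value. The transferase gene MGST2 followed closely at 1.72, and with a pseudocount of 0.01 MGST2 (1.75) was above SOD3 (1.73). SOD1 (gene ID 395938), the cytosolic copper-zinc enzyme, had 305 TPM at post-SM6 and 448 TPM at SM0, a log2 change of -0.56. SOD2, the mitochondrial manganese enzyme, had 69.4 TPM at post-SM6 and 66.4 TPM at SM0, and CAT, the catalase of peroxisomes, had 17.1 TPM at post-SM6 and 18.2 TPM at SM0. Neither of these reached 1.3-fold. SOD1 was the most abundant of the 4 transcripts, with 67.8% of their sum at post-SM6 and 81.5% at SM0.

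No peroxiredoxin was called, and 52.8% of all genes tested were not called either. PRDX1 (gene ID 424598), the second most abundant member in both libraries, had 1330.3 TPM at post-SM6 and 1029 TPM at SM0. Its log2 change of 0.37 lay just below the criterion of 0.379 and passed it, at 0.40, when TPM were divided by the median ratio of well-expressed genes. PRDX4, the peroxiredoxin of the endoplasmic reticulum, had 238 TPM at post-SM6 and 233 TPM at SM0. PRDX6, which works with glutathione, had 134 TPM at post-SM6 and 121 TPM at SM0, and the mitochondrial PRDX3 had 77.1 TPM at post-SM6 and 82.5 TPM at SM0. SRXN1, the sulfiredoxin that repairs overoxidized peroxiredoxins, had 60.1 TPM at post-SM6 and 70.3 TPM at SM0.

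The thioredoxin system showed 1 large change, in its inhibitor. TXNIP (gene ID 107051021) encodes a protein that binds thioredoxin and limits glucose uptake in mammals, and had 164 TPM at post-SM6, against 51.0 TPM at SM0, a log2 change of 1.68. TXN (gene ID 396437), the cytosolic thioredoxin, was the most abundant member, with 2577 TPM at post-SM6 and 2131 TPM at SM0. It alone made up 25.1% of the members' TPM at post-SM6 and 23.5% at SM0. The mitochondrial TXN2 had 156 TPM at post-SM6 and 139 TPM at SM0. The reductases TXNRD1 (62.8 TPM at post-SM6 and 55.4 TPM at SM0), TXNRD3 (68.3 TPM at post-SM6 and 55.6 TPM at SM0) and TXNRD2 (5.57 TPM at post-SM6 and 5.29 TPM at SM0) also differed by less than 1.3-fold. All 6 genes of this group were above 0 in their log2 change, as were 6378 of all 13321 genes tested. TXNIP was the only gene of the 6 past the criterion (16.7%), against 23.9% of all genes tested.

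Of 10 genes named for a thioredoxin domain or likeness, 4 (40%) were higher and none was lower, against 23.9% and 23.3% of all genes tested. They carry the thioredoxin fold but are not all antioxidant enzymes, and TXNL4A, for example, is a spliceosome protein. TXNDC17, a small cytosolic oxidoreductase, had 295 TPM at post-SM6, against 199 TPM at SM0. TXNDC5, a protein disulfide isomerase of the endoplasmic reticulum, had 35.4 TPM at post-SM6 and 21.1 TPM at SM0, and TXNDC16 had 18.4 TPM at post-SM6 and 12.3 TPM at SM0. TXNL4A, with 37.3 TPM at post-SM6 and 28.6 TPM at SM0, passed narrowly at a log2 change of 0.39 and missed the criterion with a pseudocount of 1 and without the 10 most abundant genes. TXNDC9, TXNDC11, TXNDC12, TXNDC15, TXNL1 and TXNL4B changed by less than 1.3-fold. Without these 10 genes, 21 of the remaining 51 members (41.2%) were higher and 6 (11.8%) lower. This count was added after the values were seen.

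Among the glutaredoxins, which reduce disulfides with glutathione, GLRX was lower, with 20.5 TPM at post-SM6 and 31.6 TPM at SM0, a log2 change of -0.62. GLRX encodes the cytosolic enzyme. GLRX3 and GLRX5 take part in iron-sulfur cluster handling and changed little. GLRX3 had 110.1 TPM at post-SM6 and 111 TPM at SM0, and GLRX5 had 34.6 TPM at post-SM6 and 37.98 TPM at SM0. GLRX2 had 83.9 TPM at post-SM6 and 70.3 TPM at SM0. The 4 genes summed to 249 TPM at post-SM6 and 251 TPM at SM0.

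All 4 genes of glutathione synthesis and reduction were higher at post-SM6, within a narrow range of log2 changes from 0.38 to 0.61. Of all genes tested, 23.9% were higher. GSR, glutathione reductase, had 25.05 TPM at post-SM6 and 16.4 TPM at SM0. GCLM and GCLC encode the modifier and the catalytic subunit of glutamate-cysteine ligase, the enzyme of the rate-limiting step. GCLM had 67.2 TPM at post-SM6 and 49.5 TPM at SM0, and GCLC had 21.9 TPM at post-SM6 and 16.7 TPM at SM0. GSS, glutathione synthetase, had 36.2 TPM at post-SM6 and 27.8 TPM at SM0. The log2 changes of GCLC at 0.39 and GSS at 0.38 lay at the edge of the criterion, and both missed it with a pseudocount of 1 (0.37 for each) and without the 10 most abundant genes (0.37 and 0.35).

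The glutathione S-transferases included 15 members, of which 9 (60%) were higher and 2 (13.3%) lower at post-SM6. Of all genes tested, 23.9% were higher and 23.3% lower. Their summed level was 1229 TPM at post-SM6 and 975 TPM at SM0. The classes differed. Of the 6 alpha-class genes, 4 (66.7%) were higher and none was lower, and their sum was 701 TPM at post-SM6, against 439 TPM at SM0. GSTAL3 (gene ID 396380) had 90.1 TPM at post-SM6, against 31.3 TPM at SM0, a log2 change of 1.52. GSTAL2 had 218 TPM at post-SM6 and 110.0 TPM at SM0, GSTAL1 had 89.3 TPM at post-SM6 and 55.5 TPM at SM0, and GSTA2 had 128 TPM at post-SM6 and 85.4 TPM at SM0. GSTA4L (162 TPM at post-SM6 and 142 TPM at SM0) and GSTA3 (13.7 TPM at post-SM6 and 15.1 TPM at SM0) changed by less than 1.3-fold.

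The alpha-class genes form an array without other genes between them in the RefSeq order of GRCg7b (GSTAL3, GSTA4L, GSTA3, GSTAL2, GSTAL1, GSTA2), with 6 genes between the array and GCLC. Such copies can share reads, and the split of TPM between them is uncertain. With the 6 genes summed and counted as 1, an alternative added after the values were seen, 22 of 56 members were higher and 6 lower. Of the members called either way 78.6% were then higher, against 50.6% of all genes called either way. The log2 ratio of the sum was 0.67.

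Among the 6 genes of the other soluble classes, 2 were higher and 2 lower (33.3% each), against 23.9% and 23.3% of all genes tested. GSTM2, of the mu class, had 73.4 TPM at post-SM6 and 42.4 TPM at SM0, and GSTK1, of the kappa class, had 32.8 TPM at post-SM6 and 21.1 TPM at SM0. GSTT1L (gene ID 769847), of the theta class, had 144 TPM at post-SM6 and 281 TPM at SM0, a log2 change of -0.97, the second lowest of all members. Its direct neighbour in the RefSeq order, GSTT1, had 21.0 TPM at post-SM6 and 24.2 TPM at SM0. GSTZ1, which in mammals also acts in tyrosine breakdown, was lower, with 19.0 TPM at post-SM6 and 29.1 TPM at SM0, a log2 change of -0.61. The gene listed as GSTO1, which RefSeq now calls GSTO2, had 20.5 TPM at post-SM6 and 22.9 TPM at SM0. GSTT1L was the most abundant soluble transferase among the members at SM0, and GSTAL2 was at post-SM6.

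All 3 microsomal transferases, membrane proteins of a separate family, were higher, against 23.9% of all genes tested. MGST2 (gene ID 770916), which in mammals can also make leukotriene C4, had 8.84 TPM at post-SM6, against 2.62 TPM at SM0, a log2 change of 1.72. MGST1 had 180.0 TPM at post-SM6 and 92.0 TPM at SM0, a log2 change of 0.97, and MGST3 had 28.7 TPM at post-SM6 and 19.9 TPM at SM0, a log2 change of 0.53. MGST1 gave 82.7% of their sum at post-SM6 and 80.4% at SM0.

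**Figure D4:**
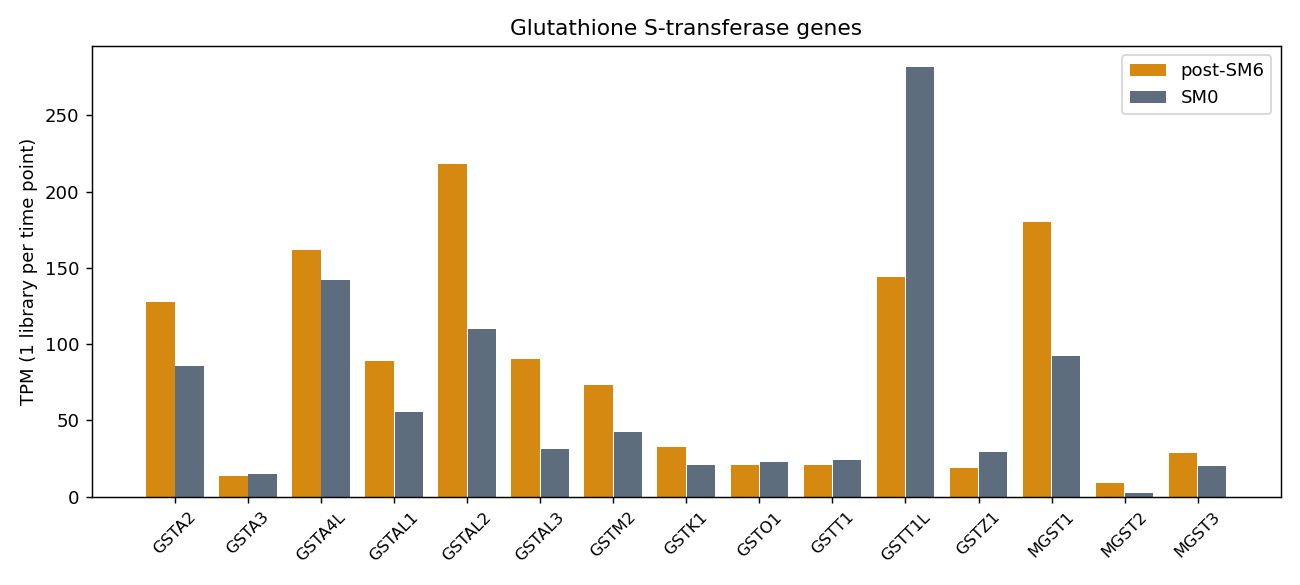
TPM (vertical axis, from 0) of the 15 glutathione S-transferase genes at post-SM6 (orange) and SM0 (grey), with 1 library per bar and no error. GSTAL2, GSTAL3 and MGST1 were higher at post-SM6, and GSTT1L had 144 TPM at post-SM6 and 281 TPM at SM0.

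Of the 2 quinone reductases 1 was higher and 1 lower, against 23.9% and 23.3% of all genes tested. NQO1 (gene ID 769737) had 9.09 TPM at post-SM6, against 3.81 TPM at SM0, a log2 change of 1.23. NQO2, the better expressed of the pair, had 35.7 TPM at post-SM6 and 47.0 TPM at SM0. Its log2 change of -0.40 missed the criterion, at -0.36, when TPM were divided by the median ratio of well-expressed genes. Of the methionine sulfoxide reductases, which repair oxidized methionine, MSRB3 had 99.4 TPM at post-SM6 and 62.6 TPM at SM0, a log2 change of 0.67. In humans, loss of MSRB3 causes deafness. MSRB1 (41.8 TPM at post-SM6 and 37.6 TPM at SM0) and MSRA (18.7 TPM at post-SM6 and 22.7 TPM at SM0) changed by less than 1.3-fold.

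Of the regulators, NFE2L2 was higher, with 112 TPM at post-SM6 and 79.3 TPM at SM0, a log2 change of 0.50. KEAP1 had 13.3 TPM at post-SM6 and 16.0 TPM at SM0, a log2 change of -0.26. NFE2L2 transcripts were more abundant than KEAP1 transcripts in both libraries.

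**Figure D5:**
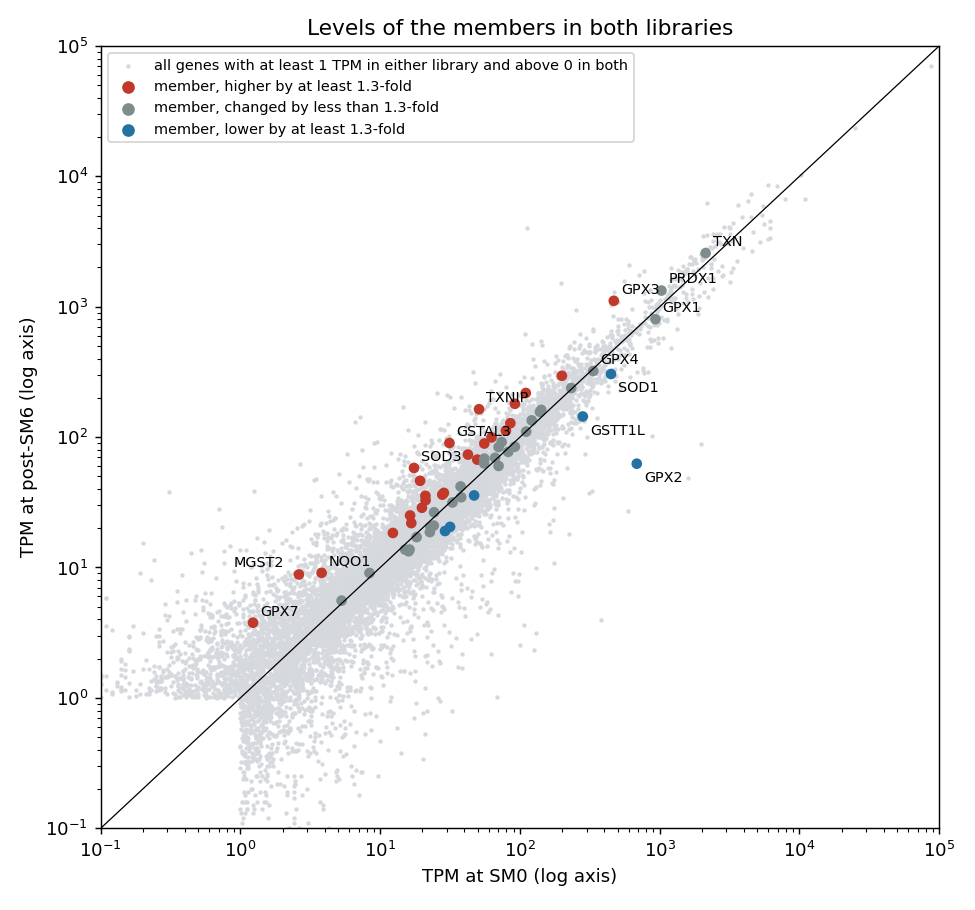
TPM at post-SM6 (vertical log axis) against TPM at SM0 (horizontal log axis) for the 61 members (large points) and for all genes with at least 1 TPM in either library and above 0 in both (small light grey points). Members are red when higher and blue when lower by at least 1.3-fold, and darker grey when changed by less. The line marks equal levels. GPX2 lies far below the line at a high level, while MGST2, NQO1 and GPX7 lie above it at low levels.

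The members were also grouped by the compartment in which their proteins are known to act, a grouping made after the values were seen. Over all genes tested, 23.9% were higher, 23.3% lower and 52.8% neither, so counts in such small groups say little about a compartment. Both extracellular enzymes, SOD3 and GPX3, were higher, and summed to 1168 TPM at post-SM6, against 487 TPM at SM0. Of 7 genes of the endoplasmic reticulum and secretory route (PRDX4, GPX7, GPX8, TXNDC5, TXNDC11, TXNDC12 and TXNDC16), 4 (57.1%) were higher and none was lower. The 6 genes counted as mitochondrial (SOD2, PRDX3, TXN2, TXNRD2, GLRX2 and GLRX5) each changed by less than 1.3-fold, and they summed to 427 TPM at post-SM6 and 401 TPM at SM0. GPX1, which acts in the cytosol too, and GSTK1, known from mitochondria and peroxisomes and called higher, were not counted among them, so the count depends on the assignment. Under this assignment, 43 members lay outside these compartments and the microsomal transferases. Of these, 16 (37.2%) were higher and 6 (14.0%) lower. That all 6 lower members were in this remainder also depends on the assignment. Another feature that the names do not give, also chosen after the values were seen, is selenocysteine, which vertebrate GPX1 to GPX4, the thioredoxin reductases and MSRB1 are known to carry in the active site. Of these 8 genes 1 was higher (GPX3) and 1 lower (GPX2), 12.5% each, and their sum was 2474 TPM at post-SM6 and 2575 TPM at SM0.

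Further genes of the pathway came from 4 lists. Of 38 genes in a list of the NRF2 pathway and of NADPH supply, 11 (28.9%) were higher and 6 (15.8%) lower, against 23.9% and 23.3% of all genes, with a median log2 change of 0.07. The 3 genes higher by at least 2-fold are described here. None of the 6 lower genes changed by that much. By listed symbol these were OXR1, ME1, TKT, TALDO1, SESN2 and BACH2. HMOX1, heme oxygenase, had 39.6 TPM at post-SM6, against 16.1 TPM at SM0. AKR1A1, an aldehyde reductase, had 168 TPM at post-SM6 and 83.0 TPM at SM0, and FTH1, the ferritin heavy chain, had 6205 TPM at post-SM6 and 2188 TPM at SM0. SLC7A11, the cystine importer, was low, with 1.99 TPM at post-SM6 and 2.26 TPM at SM0.

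In a list of glutathione supply, use and breakdown, 5 of 26 genes were higher and 5 lower (19.2% each), against 23.9% and 23.3% of all genes. The highest changes were those of GGT7 (75.2 TPM at post-SM6 and 18.4 TPM at SM0) and GGT5 (7.60 TPM at post-SM6 and 2.26 TPM at SM0), both of the gamma-glutamyltransferase family, and of CDO1 (240.4 TPM at post-SM6 and 79.4 TPM at SM0), which uses up cysteine. The gene listed as GGT1, called GGT2 in RefSeq, had 34.7 TPM at post-SM6 and 33.1 TPM at SM0. CHAC1, which degrades glutathione in the cytosol, was lower, with 46.1 TPM at post-SM6 and 142 TPM at SM0, a log2 change of -1.62.

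Among 21 genes of selenoprotein synthesis and other selenoproteins, 4 (19.0%) were higher and 2 (9.52%) lower, both below the shares of all genes. SELENOP1, a secreted selenium carrier, had 22.0 TPM at post-SM6, against 3.76 TPM at SM0, and LRP8, its receptor in mammals, had 2.58 TPM at post-SM6 and 7.61 TPM at SM0. Among 25 genes for producers of reactive oxygen species, 13 (52.0%) were higher and 7 (28.0%) lower, against 23.9% and 23.3% of all genes, and the median log2 change was 0.49. Many of them were low, and of the 14 with at least 5 TPM in either library 8 (57.1%) were higher and 3 (21.4%) lower, against 20.6% and 20.7% of all such genes. Those changed by at least 2-fold at over 5 TPM in either library were VNN1, NCF1 and ERO1B. VNN1, called VNN2 in RefSeq, was counted in this list but is a pantetheinase and not itself an oxidase. It had 7.91 TPM at post-SM6 and 0.93 TPM at SM0. NCF1, a subunit of the phagocyte NADPH oxidase, had 5.90 TPM at post-SM6 and 1.93 TPM at SM0. ERO1B, an oxidase of the endoplasmic reticulum, had 35.3 TPM at post-SM6 and 16.7 TPM at SM0. The more abundant ERO1A of the same family was lower, with 100.2 TPM at post-SM6 and 143.0 TPM at SM0. The NADPH oxidase gene NOX1 had 0.47 TPM at post-SM6 and 3.34 TPM at SM0, and its partner CYBA had 72.2 TPM at post-SM6 and 37.7 TPM at SM0. The other genes changed by at least 2-fold stayed below 5 TPM in both libraries, with AOX2 and MAOA higher and MAOB, HAO1 and NCF4 lower. The leukocyte genes CYBB and RAC2 were also higher at such low levels. NCF4, like NCF1 a subunit of the phagocyte NADPH oxidase, went the other way, with 0.78 TPM at post-SM6 and 4.25 TPM at SM0. CYBB had 1.25 TPM at post-SM6 and 0.47 TPM at SM0, and RAC2 had 1.10 TPM at post-SM6 and 0.12 TPM at SM0.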

How the data were processed

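RNA was sequenced from pooled BP explants, with 1 library for each of post-SM6 and SM0. SM24 and SM48 were not analysed here. Per the study's methods, the authors removed ribosomal reads with Bowtie2 2.1.0, aligned the rest to GRCg6a with STAR 2.7.1a, estimated expression with RSEM 1.3.0 and deposited TPM per gene. The annotation version is not given in the sources used here. TPM are shares of a fixed sum, so a large change in a few genes shifts all others, and they hold no depth. The libraries summed to 999999 TPM at post-SM6 and 999997 TPM at SM0.

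Log2 changes were computed with a pseudocount of 0.1, which understates the changes of low genes, over genes of at least 1 TPM in either library. The fold criterion of 1.3 is that of the study's methods. The study applied it to normalized read counts, with filters on p-value, raw count and TPM, and then used the weighted average difference method. Here the fold was applied to TPM with the TPM minimum alone, so a call here is not a differentially expressed gene of the study. With 1 library per time point no test was run and no p-value is given. The members, the 4 pathway lists and the 8 marker lists were chosen with earlier results of these data known. All members could be named, and described in full were the 10 of highest mean TPM and the 8 at either end of the log2 changes. Of the pathway lists, HMOX1, SLC7A11, GGT1 and genes changed by at least 2-fold were to be named, with 1 further gene that is not reported here, and CYBA was added after its values were seen. By gene ID, 59 of 61 members, all but TXNIP and KEAP1, had an entry in RefSeq's gene table for GRCg7b. Current symbols and gene order were taken from it, and no coordinates. A listed symbol missing from the files was replaced by the gene with that current symbol. The planned searches of promoter and protein sequences were not run.

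Alternatives were pseudocounts of 1 and 0.01, no minimum or one of 5 TPM, a fold of 2, TPM divided by the median ratio of post-SM6 to SM0 (0.978, over 8281 genes with mean TPM of at least 10), and TPM rescaled without the 10 genes of highest mean TPM. The calculation was tested on simulated data, made from the SM0 levels with planted changes of 2-fold and no noise. This checks the code, and not calls near 1.3-fold or variation between libraries. Python 3.11.15, numpy 2.4.6, pandas 2.3.3 and matplotlib 3.10.9 were used.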

Additional observations from a re-analysis of the deposited data

How the results depend on the processing

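Under the other pseudocounts, minimums and scalings, 56 of 61 members kept their call wherever they were tested. GPX7, with less than 5 TPM in both libraries, was not tested at the minimum of 5 TPM. GLRX3, at a log2 change of -0.01, was the 1 member whose sign changed (0.02 with TPM divided by the median ratio). The 5 exceptions, TXNL4A, GCLC, GSS, NQO2 and PRDX1, lie within a small distance of the 1.3-fold criterion. Between 22 and 26 members were higher and 5 or 6 lower under these settings, and the median log2 change of the members ran from 0.16 to 0.22. Of the members called either way, 78.6% to 83.9% were higher, against 47.7% to 53.9% of all genes called either way. At a fold of 2, 8 members (13.1%) were higher and 1 (1.64%) lower, with 1273 (9.56%) higher and 1043 (7.83%) lower among all genes. With no minimum, 4683 of all genes were higher and 5134 lower, as genes near 0 TPM then entered. With a minimum of 5 TPM, 8 producers of reactive oxygen species were higher and 3 lower. TPM rescaled without the 10 most abundant genes placed the log2 ratio of the summed methionine sulfoxide reductases (0.35) and of the regulators (0.37) below the criterion. A change in the median was counted as a move when it exceeded the log2 of 1.3-fold, since no spread between replicates exists. No paired analysis was possible because each time point has 1 library. The alternative for promoters was not run.

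The deposited TPM carry no depth and read counts were not used here, so no counting error is given for any member, and values near 1 TPM, such as those of GPX7, are the least certain. How reads shared between near-identical copies were divided cannot be seen in TPM, which bears most on the alpha-class transferases.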

Other observations

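Some abundant relatives lie outside the naming rule and were looked up after the members' values were seen. HPGDS, the sigma-class glutathione S-transferase that makes prostaglandin D2, had 1298 TPM at post-SM6 and 1457 TPM at SM0, a log2 change of -0.17. It was more abundant than any transferase among the members in both libraries. GST2L (gene ID 107050492), listed as a glutathione S-transferase by its symbol and called LOC107050492 in RefSeq, had 659.8 TPM at post-SM6 and 504 TPM at SM0, a log2 change of 0.39. NXN, nucleoredoxin, had 53.3 TPM at post-SM6 and 48.4 TPM at SM0.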
